A study of Mus musculus with 18 samples.

Results

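Somatostatin and cortistatin are related neuropeptides, and both act on the same family of G protein-coupled receptors. The genes examined here are the peptide genes Sst and Cort and the receptor genes Sstr1, Sstr2, Sstr4 and Sstr5. They are 6 of the 38561 genes counted in brain RNA of mice lacking Pcm1, a centriolar satellite protein, and of their wild-type (WT) littermates. The set was listed by family name, but the family was selected on measured values, since the difference between genotypes in the frontal cortex was already known when it was proposed. Values of that contrast are therefore given for these genes as a description, without a p-value. Sstr3, the remaining receptor gene, is not one of the 6 and is given beside them where all receptors are summed, searched or listed. All 6 genes had at least 10 counts in at least 1 library, the minimum for the 17545 genes tested.

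The study asked how loss of Pcm1 changes gene expression in the adult brain, and it sequenced polyadenylated RNA of 3 regions, frontal cortex, striatum and hippocampus. Each region has 3 WT and 3 Pcm1-/- libraries, 18 in all, from adult mice labelled C57 Bl6J. The mutants descend from gene-trap embryonic stem cells of the E14Tg2a.4 parental line and were kept on a C57BL/6J background after backcrossing, so they stand for 1 trapped allele. Each library is from 1 animal, the 3 regions came from the same animals, and by counts on the Y chromosome 1 animal of each genotype was male.

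Somatostatin is made by a large class of GABA-releasing interneurons many of which contact the dendrites of their targets, and also by interneurons of the striatum. Cortistatin is made by a subset of cortical and hippocampal interneurons and shares most of the somatostatin core sequence. The receptors couple to inhibitory G proteins, which lower cyclic AMP, open inwardly rectifying potassium channels and close calcium channels, so both peptides damp the firing of the cells they reach.

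The kinship of the peptides can be read in the last 14 codons of each precursor, which encode the mature short form. These 42 bases are shown 5′ to 3′ because they define the ligands, with the codons for the receptor-binding core Phe-Trp-Lys-Thr in capitals (GRCm38, both on the minus strand, chr4:149125267-149125308 for Cort and chr16:23889732-23889773 for Sst).
Cort: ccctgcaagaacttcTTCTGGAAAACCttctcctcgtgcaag
Sst: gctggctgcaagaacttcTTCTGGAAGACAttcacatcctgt
Aligned on the core, the stretches overlap at 13 codons, of which 11 encode the same residue. In the codons of the core, 10 of 12 bases matched.

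Sst (ENSMUSG00000004366) spans chr16:23889573-23890958 and Cort (ENSMUSG00000028971) chr4:149125034-149126763, both on the minus strand with 2 exons. Sstr4 (ENSMUSG00000037014, chr2:148395344-148396767, plus strand) consists of 1 exon. Sstr1 (ENSMUSG00000035431) lies at chr12:58211772-58214444 on the plus strand, and Sstr5 (ENSMUSG00000050824) at chr17:25489875-25497288 on the minus strand. Sstr2 (ENSMUSG00000047904, chr11:113619342-113626028, plus strand) lies inside Slc39a11, which is read from the opposite strand. The strand setting of the counting is not given in the sources used here, so reads shared with Slc39a11 may have been set aside.

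In the promoter windows of RefSeq (GRCm38.p6, 250 bases before to 50 after each transcription start), the cyclic AMP response element TGACGTCA was searched on both strands. The element, which binds the factor CREB, is shown in capitals with its flanks for the genes found to hold it (chr16:23890874-23890903, minus strand, for Sst and chr11:113619258-113619287, plus strand, for Sstr2).
Sst: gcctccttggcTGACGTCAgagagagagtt
Sstr2: ccaagctgccgTGACGTCAcgggcgggggc
It began 48 bases upstream of the RefSeq start of Sst and 58 bases upstream of that of Sstr2. The Ensembl start of Sst given above lies farther upstream, so that the element begins 66 bases inside that first exon. Of all 32851 windows, 588 (1.79%) held these letters. The windows of Cort, Sstr3 and Sstr4 held no match, and Sstr1 and Sstr5 were not searched.

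Depth was even, with 24950537 to 33405081 counts on genes per library. Pcm1 itself was 9.78-fold to 11.4-fold lower in the mutant libraries, and no library went against its genotype label. Regional markers followed the labels: the dopamine receptor gene Drd1 measured 323 to 607 CPM (the counts of a gene scaled to a common library size) in striatum and at most 19.5 CPM elsewhere, and the dentate gyrus marker Prox1 was highest in hippocampus at 128 to 200.2 CPM. Some libraries stood apart. The 6 choroid plexus genes summed to 5988 CPM in WT striatum replicate 3 and to 30.5 to 165 CPM in the other striatal libraries. In hippocampus they summed to 220.4 CPM in Pcm1-/- replicate 2 and to 2145 to 6277 CPM in the others, and oligodendrocyte genes were highest in WT replicate 1 (7557 CPM). All WT striatum libraries were run in lane 5 and the mutant ones in lanes 3 and 4, which means that the effects of genotype and lane cannot be told apart in striatum. Because these are whole-tissue samples, fewer cells of a type and less RNA per cell cannot be told apart in any result that follows.

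Sst was the most abundant of the 6 transcripts per length. Its mutant libraries lay above all WT libraries in frontal cortex and hippocampus and among them in striatum. In frontal cortex it measured 152, 152 and 127 CPM in the WT libraries and 207, 199 and 179.6 CPM in the Pcm1-/- libraries. The groups did not overlap, and the log2 fold change was 0.43 with a standard error (SE) of 0.0832. In hippocampus the WT libraries gave 91.9, 126 and 100.3 CPM and the mutant libraries 141, 209 and 132 CPM, again without overlap. The difference of 0.58 on the log2 scale (SE 0.186) did not pass the test over all genes (adjusted p = 0.425, edgeR). The highest mutant value came from replicate 2, the library low in choroid plexus genes, and without it the difference was 0.35. In striatum the WT values were 124, 131 and 136 CPM and the mutant values 116, 130.0 and 140.3 CPM, interleaved, with a log2 fold change of -0.01 (SE 0.0784, adjusted p = 0.964, edgeR).

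Among regions, WT Sst was 144 ± 14.3 CPM in frontal cortex, 130.2 ± 5.76 in striatum and 106 ± 17.9 in hippocampus (SD, n = 3 each). Frontal cortex and striatum did not differ by the test (adjusted p = 0.381, edgeR). Hippocampus was 1.36-fold below frontal cortex (adjusted p = 0.0180, edgeR), a call that was lost when any of WT frontal cortex replicates 1 and 2 or WT hippocampus replicates 1 and 3 was left out (adjusted p = 0.0574 to 0.0704, edgeR). Hippocampus and striatum missed the threshold without the animal as a block (adjusted p = 0.0833, edgeR) and passed with it (log2 difference -0.31, adjusted p = 0.0310, edgeR), and also passed without WT hippocampus replicate 2 (-0.44, adjusted p = 0.00788, edgeR). In mutants the means ran from 195 ± 13.9 CPM in frontal cortex to 129 ± 12.2 CPM in striatum (SD, n = 3 each). There Sst was lower by 0.59 on the log2 scale than in frontal cortex (adjusted p = 0.00737, edgeR). The mutant frontal cortex values entered the difference by which the family was chosen, so this p-value is not independent of that choice.

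**Figure D1:**
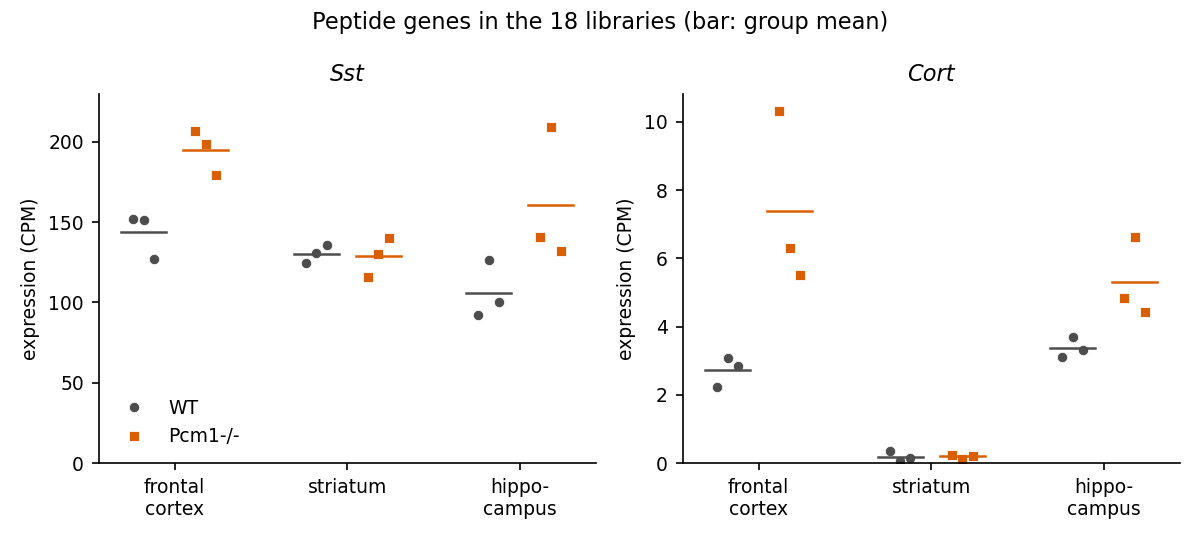
Expression of Sst and Cort in CPM (vertical axes) in each library, by region and genotype, with the group mean as a bar. Mutant libraries lie above all WT libraries in frontal cortex and hippocampus for both genes, while the striatal values overlap and Cort there is at most 0.368 CPM.

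Cort was a rare transcript with a strict regional pattern. Per kilobase of exon, WT frontal cortex held 4.02 RPKM (CPM per kilobase of merged exon) of Cort against 199 RPKM of Sst. Its WT level was 2.72 ± 0.433 CPM in frontal cortex and 3.38 ± 0.299 CPM in hippocampus (SD, n = 3 each), which did not differ by the test (adjusted p = 0.454, edgeR). In striatum only 2 to 10 reads were counted in a WT library and 4 to 7 in a mutant library. Striatal Cort was 13.8-fold below frontal cortex in WT mice (adjusted p = 2.73e-05, edgeR) and 36.9-fold below it in mutants (adjusted p = 6.49e-07, edgeR). Both use frontal cortex values by which the family was chosen, and the larger fold in mutants includes that genotype difference. The WT difference of -3.79 on the log2 scale was -4.62 without striatum replicate 1 and -3.41 without striatum replicate 2.

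In frontal cortex, Cort measured 2.24, 3.08 and 2.84 CPM in WT libraries and 10.3, 6.30 and 5.52 CPM in Pcm1-/- libraries. Every mutant value was above every WT value. The log2 fold change of 1.44 (SE 0.246) was the largest of the 6 genes, and it was 1.12 without mutant replicate 1, which gave the highest value. Hippocampus had 3.12, 3.71 and 3.33 CPM in WT and 4.83, 6.63 and 4.43 CPM in mutants, also without overlap. That difference was 0.62 (SE 0.194, adjusted p = 0.418, edgeR), or 0.44 without mutant replicate 2. In striatum the log2 fold change was 0.03 with an SE of 0.630, so a difference was not detectable at this depth. Cenps, the gene next upstream on the same strand as Cort, had 2.01 ± 0.248 CPM in WT and 2.01 ± 0.124 CPM in mutant frontal cortex (SD, n = 3 each).

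The balance of the peptides was set against each other within libraries as Sst reads per Cort read. In WT frontal cortex the ratio was 67.9, 49.2 and 44.8, and in mutant frontal cortex, without overlap, it was 20.05, 31.5 and 32.6. In hippocampus WT libraries gave 29.5, 34.1 and 30.2 and mutant libraries 29.1, 31.5 and 29.8, which overlapped. There, log2 Cort minus log2 Sst was 0.04 higher in mutants (exact two-sided permutation test, p = 0.60 with 3 against 3 libraries, smallest possible 0.10). In striatum the ratio ran from 338 to 1814, and the latter rests on 2 Cort reads (95% Clopper-Pearson interval 502 to 14989, counting error only). The genotypes overlapped there (difference 0.18, exact two-sided permutation test, p = 0.80).

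**Figure D2:**
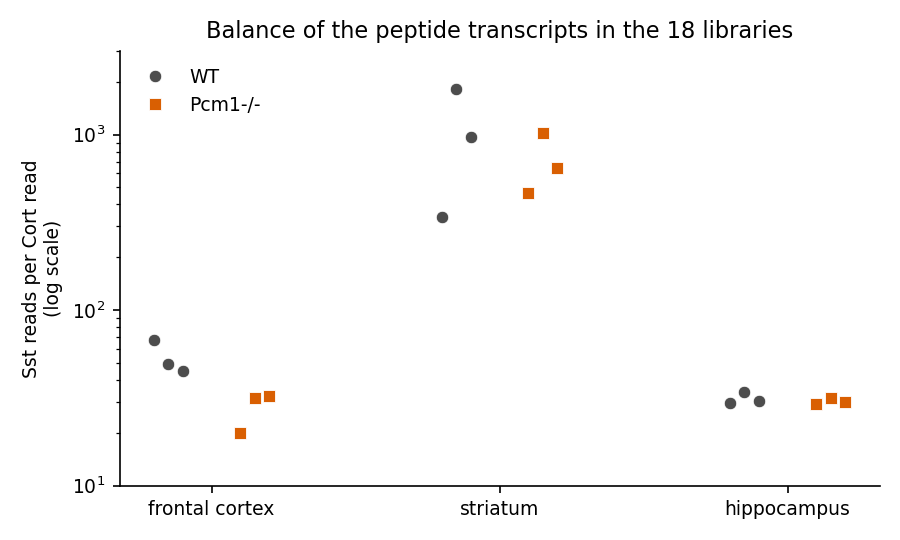
Sst reads per Cort read on a log axis in each library, by region and genotype. WT frontal cortex (44.8 to 67.9) lies above mutant frontal cortex (20.05 to 32.6), the hippocampal libraries of both genotypes share a range from 29.1 to 34.1, and the striatal values are 338 or more.

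The receptor genes did not all peak in the same region. In WT mice, Sstr1 and Sstr2 were highest in frontal cortex, Sstr4 in hippocampus and Sstr5 in striatum, and the same order held in mutants. Of the 6 genes, 5 passed the test in each WT contrast, namely striatum against frontal cortex (41.5% of all genes tested passed), hippocampus against frontal cortex (29.8%) and hippocampus against striatum (29.2%). Among Pcm1-/- libraries the counts were 6 (54.3% of all genes), 4 (41.5%) and 5 (45.0%). Leaving out single libraries left 2 to 4 of the 5 calls in WT hippocampus against frontal cortex. Frontal cortex libraries in these contrasts also entered the difference by which the family was chosen.

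Sstr1, a receptor that binds both peptides, fell in steps from frontal cortex to hippocampus to striatum. The WT means were 14.5 ± 0.566, 5.20 ± 0.828 and 2.45 ± 0.308 CPM (SD, n = 3 each), and every step passed the test (adjusted p = 5.51e-05 and 0.000379, edgeR). Sstr2, the most studied receptor of the family and the main target of octreotide, had the same order, with 27.8 ± 3.08, 10.4 ± 4.23 and 5.00 ± 0.764 CPM (SD, n = 3 each). Striatal Sstr2 was 5.55-fold below frontal cortex in WT mice and 6.63-fold below it in mutants (adjusted p = 3.00e-05 and 4.32e-08, edgeR).

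Sstr4, a receptor known from hippocampal pyramidal neurons, was 29.4 ± 7.34 CPM in WT hippocampus, 18.5 ± 0.994 CPM in frontal cortex and 7.98 ± 0.873 CPM in striatum (SD, n = 3 each). Hippocampus exceeded striatum 3.67-fold (adjusted p = 2.10e-05, edgeR). Its 1.59-fold excess over frontal cortex (adjusted p = 0.0149, edgeR) missed the threshold without WT frontal cortex replicate 2 or WT hippocampus replicate 2 (adjusted p = 0.0564 and 0.0507, edgeR), whereas the same contrast in mutants was 1.80-fold (adjusted p = 0.000207, edgeR).

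Sstr5, a receptor best known from the pituitary and pancreas, was highest in striatum. It had 10.5 ± 3.34 CPM in WT striatum, 0.886 ± 0.472 CPM in frontal cortex and 0.245 ± 0.145 CPM in hippocampus (SD, n = 3 each), the last from 4 to 11 reads per library. Striatum exceeded frontal cortex 11.8-fold in WT mice and 14.99-fold in mutants (adjusted p = 5.88e-05 and 3.10e-09, edgeR). Hippocampus lay 42.4-fold below striatum in WT mice and 50.8-fold below it in mutants (adjusted p = 1.16e-05 and 8.83e-10, edgeR). The step from frontal cortex to hippocampus in WT mice (adjusted p = 0.0249, edgeR) missed the threshold when any of WT frontal cortex replicates 2 and 3 or WT hippocampus replicates 1 and 3 was left out (adjusted p = 0.0577 to 0.0952, edgeR).

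**Figure D3:**
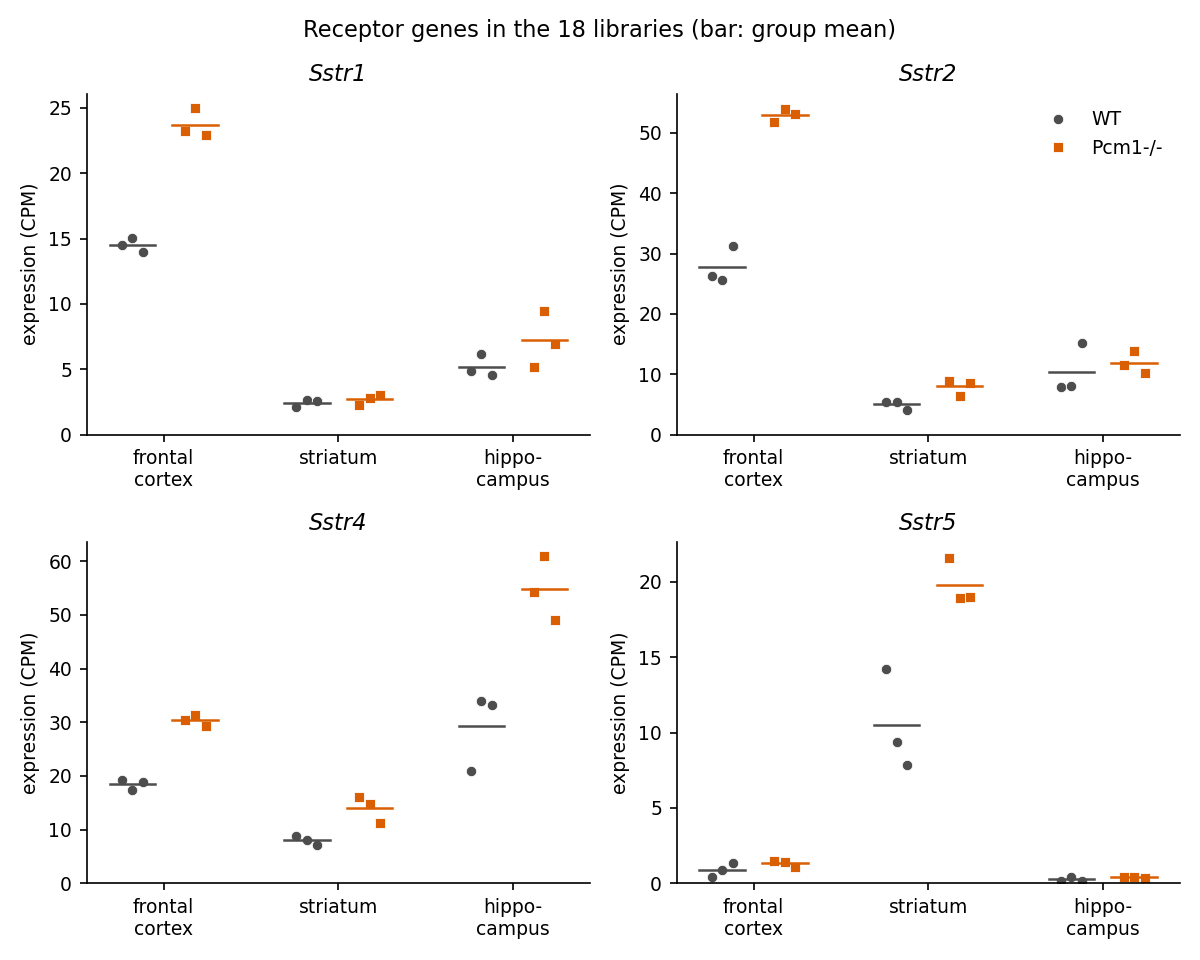
Expression of the receptor genes in CPM (vertical axes, each from 0) in each library, by region and genotype, with the group mean as a bar. Sstr1 and Sstr2 peak in frontal cortex, Sstr4 in hippocampus and Sstr5 in striatum, and Sstr4 is the receptor whose mutant libraries lie above all WT libraries in every region.

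The genotype contrast of the receptors was described first in the frontal cortex. WT libraries held 14.5, 15.1 and 13.9 CPM of Sstr1 and mutant libraries 23.2, 25.0 and 22.9 CPM, a log2 fold change of 0.70 (SE 0.0726). For Sstr2 the WT values were 26.4, 25.6 and 31.3 CPM and the mutant values 51.8, 54.0 and 53.2 CPM, a log2 fold change of 0.93 (SE 0.0805). Neither gene's groups overlapped, so the lowest mutant library was above the highest WT library for both. Sstr4 gave 19.3, 17.4 and 18.8 CPM in WT and 30.5, 31.3 and 29.3 CPM in mutants, a log2 fold change of 0.71 (SE 0.0698). Sstr5, near the detection limit in this region, overlapped between groups, with 0.420, 0.875 and 1.36 CPM against 1.44, 1.42 and 1.09 CPM and a log2 fold change of 0.57 (SE 0.355).

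In this contrast 5 of the 6 genes had groups that did not overlap, as had 21.3% of all genes, and 306 genes passed the test (1.74% of 17545; 11 genes without mutant replicate 1). Since the family was chosen by this contrast, nothing is read from these counts. Over 15 alternative settings, the log2 fold change stayed between 0.66 and 0.74 for Sstr1, between 0.87 and 1.02 for Sstr2 and between 0.67 and 0.74 for Sstr4. For Sstr5 it ran from 0.22 to 1.03.

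The family was proposed with the frontal cortex contrast known. Striatal and hippocampal libraries come from the same animals, so they are not an independent check of that choice. In striatum, none of the 6 genes passed at an adjusted p under 0.05 in the edgeR test, by which 0.0285% of all genes were called. At an unadjusted p under 0.05 there were 3, Sstr2, Sstr4 and Sstr5, against 13.5% of all genes. DESeq2 called the same 3 (adjusted p = 0.0315, 0.000565 and 0.000855) and 3.84% of the genes to which it gave an adjusted p. These are also the 3 genes whose groups did not overlap, against 19.0% of all genes. The median log2 fold change of the 6 genes was 0.41, beside a median of -0.0023 over all genes.

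Striatal Sstr4 measured 8.78, 8.11 and 7.05 CPM in WT libraries and 16.1, 14.7 and 11.3 CPM in mutant libraries. The log2 fold change was 0.82 (SE 0.153, adjusted p = 0.125, edgeR; 0.000565 to 0.484 over 14 alternatives). Sstr5 measured 14.2, 9.37 and 7.82 CPM in WT and 21.6, 18.9 and 19.0 CPM in mutants. Its log2 fold change was 0.92 (SE 0.199, adjusted p = 0.147, edgeR; 0.000855 to 0.538 over 14 alternatives), and the WT group spread more widely than the mutant one. Sstr2 measured 5.48, 5.40 and 4.12 CPM in WT and 8.89, 6.46 and 8.61 CPM in mutants, a log2 fold change of 0.68 (SE 0.175, adjusted p = 0.197, edgeR; 0.0265 to 0.607 over 14 alternatives).

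The lowest WT value of all 3 genes came from replicate 3, the library rich in choroid plexus RNA. Without it, the log2 fold changes were 0.73 for Sstr4, 0.75 for Sstr5 and 0.55 for Sstr2. With sex as a covariate all 3 passed (adjusted p = 0.0387, 0.0347 and 0.0265, edgeR), as did 2.88% of all genes. The male libraries were WT replicate 3 and mutant replicate 2, the latter with the highest oligodendrocyte sum of the mutants (7173 CPM). Sex therefore cannot be told apart from the makeup of these libraries. Striatal Sstr1 differed by 0.15 (SE 0.185, adjusted p = 0.771, edgeR), and its values of 2.10 to 2.67 CPM in WT and 2.25 to 3.04 CPM in mutants overlapped.

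Markers of other cells also differed between the striatal groups. The 8 genes of striatal projection neurons summed to 8904 to 10118 CPM in WT and 10125 to 10926 CPM in mutant libraries, and the 4 oligodendrocyte genes to 7303 to 7395 CPM and 4424 to 7173 CPM. Of the 8 projection neuron genes, 7 were higher in sign in mutants, among them Drd1 (log2 fold change 0.61, adjusted p = 0.123, edgeR; 1.69e-05 by DESeq2). GABA neuron genes summed to 2076 to 2202 CPM in WT and 2261 to 2338 CPM in mutant libraries. Sums of other Sst interneuron genes were 914 to 1052 and 1054 to 1289 CPM, and of Lamp5 interneuron genes 249 to 277 and 313 to 412 CPM. Astrocyte genes summed to 1070 to 1649 and 918 to 1049 CPM. The part of these cells in the striatal receptor values was not tested.

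In hippocampus, none of the 6 genes passed by edgeR, which called 0.0171% of all genes. There were 3 at an unadjusted p under 0.05, Sst, Cort and Sstr4, against 9.89% of all genes. DESeq2 called 1, Sstr4 (adjusted p = 0.00109), and 1.77% of the genes to which it gave an adjusted p. The same 3 had groups that did not overlap, against 17.1% of all genes, and the median log2 fold change of the 6 genes was 0.60, beside -0.00033 over all genes.

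Hippocampal Sstr4 measured 20.9, 34.0 and 33.3 CPM in WT and 54.4, 60.9 and 49.1 CPM in mutants. The mutant mean of 38.5 ± 4.14 RPKM (SD, n = 3) was the highest group mean of the 5 receptor genes per length. The log2 fold change was 0.88 (SE 0.180, adjusted p = 0.391, edgeR; 0.00109 to 0.919 over 15 alternatives). The low WT library was replicate 1, rich in oligodendrocyte RNA, and without it the value was 0.69 (SE 0.0990). In 1 fit of all 18 libraries Sstr4 passed (adjusted p = 0.0156, edgeR). Sstr4 has 1 exon, and of the 369 tested protein-coding genes with 1 exon, 213, 226 and 220 were higher in sign in mutant frontal cortex, striatum and hippocampus. Their median log2 fold changes were 0.04, 0.08 and 0.07, and the part of this shift in the values of Sstr4 was not tested. Sstr1 and Sstr2 overlapped between hippocampal groups. Sstr1 had 4.85, 6.14 and 4.60 CPM in WT and 5.20, 9.44 and 6.97 CPM in mutants (log2 fold change 0.45, SE 0.231, adjusted p = 0.565, edgeR), and 0.22 without mutant replicate 2. Sstr2 had 7.82, 8.02 and 15.2 CPM in WT and 11.6, 13.9 and 10.2 CPM in mutants (0.17, SE 0.270, adjusted p = 0.848, edgeR), with 0.0044 without WT replicate 1 and 0.56 without WT replicate 3. Sstr5 stayed under 0.43 CPM in every library.

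**Figure D4:**
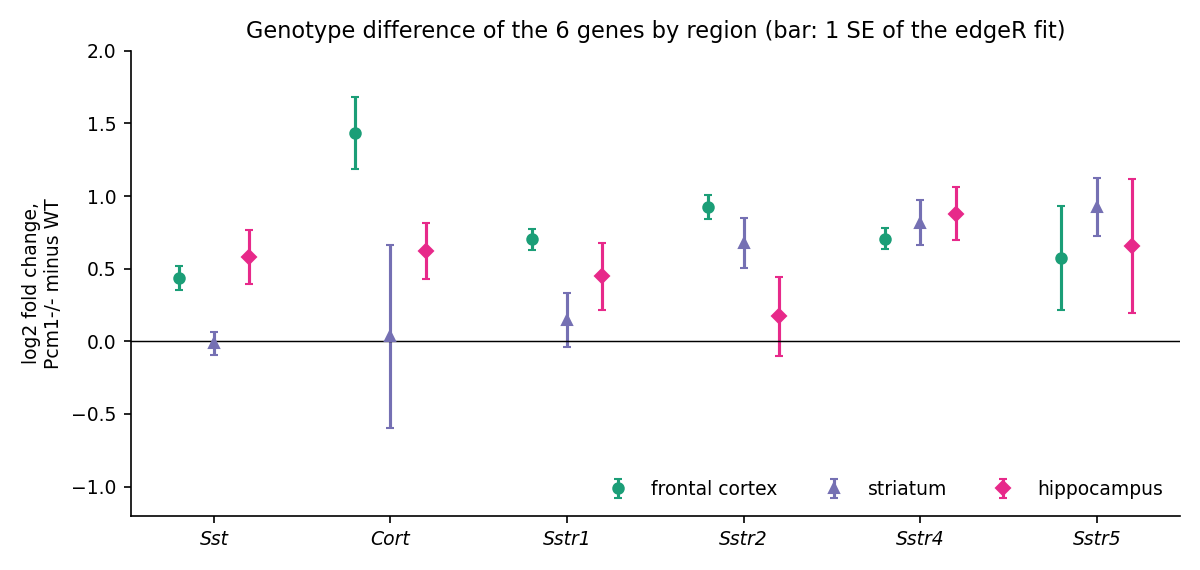
Log2 fold change between genotypes (Pcm1-/- minus WT, vertical axis) of the 6 genes in each region, with 1 SE of the edgeR fit as the bar. Sstr4 takes similar values in the 3 regions (0.71, 0.82 and 0.88), while Sst and Cort lie near 0 in striatum and above 0 in the others.

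The genotype differences of hippocampus and striatum were compared directly by an interaction term. No gene passed by edgeR (0% of 17545 genes, with 783 or 4.46% at an unadjusted p under 0.05 and 53 called by DESeq2). For Sst, the hippocampal difference exceeded the striatal one by 0.61 (SE 0.209, unadjusted p = 0.0097, adjusted p = 0.731, edgeR). For Sstr4 the excess was 0.08 (SE 0.226) and for Sstr2 it was -0.49 (SE 0.304), both with an adjusted p of 1.00 (edgeR). A difference between these 2 regions was thus not shown for any of the 6 genes after adjustment, and differences from frontal cortex were not tested. All mutant libraries came from the same 3 animals, so the regions are not independent repeats of the comparison.

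Summed per length, the transcripts of the 5 receptor genes, Sstr3 included, came to 40.3 to 43.3 RPKM in WT frontal cortex and 66.6 to 71.0 RPKM in mutant frontal cortex. In striatum the sum was 11.5 to 15.5 RPKM in WT and 20.8 to 24.9 RPKM in mutants, and in hippocampus 28.1 to 40.0 and 52.5 to 66.0 RPKM. The groups did not overlap in any region, and the frontal cortex difference is that by which the family was chosen. Of all single genes, 21.3% in frontal cortex, 19.0% in striatum and 17.1% in hippocampus had groups that did not overlap. Of the WT frontal cortex sum, Sstr4 held 31.2%, Sstr2 31.1%, Sstr3 19.8%, Sstr1 17.1% and Sstr5 0.773%. WT striatum was led by Sstr4 with 41.7 ± 1.60% and Sstr5 with 28.0 ± 4.93% (SD, n = 3 each), and WT hippocampus by Sstr4 with 57.0 ± 4.31% and Sstr3 with 22.1 ± 4.05% (SD, n = 3 each).

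In mutant hippocampus Sstr4 took 66.0 ± 1.29% of the sum (SD, n = 3), with mutant libraries at 64.8 to 67.4% and WT libraries at 52.2 to 60.5%. In mutant frontal cortex Sstr2 took 36.2 ± 0.941% and Sstr3 14.97 ± 0.550% (SD, n = 3 each). In striatum Sstr5 took 31.2 to 33.4% in mutants and 24.8 to 33.7% in WT mice, which overlapped.

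**Figure D5:**
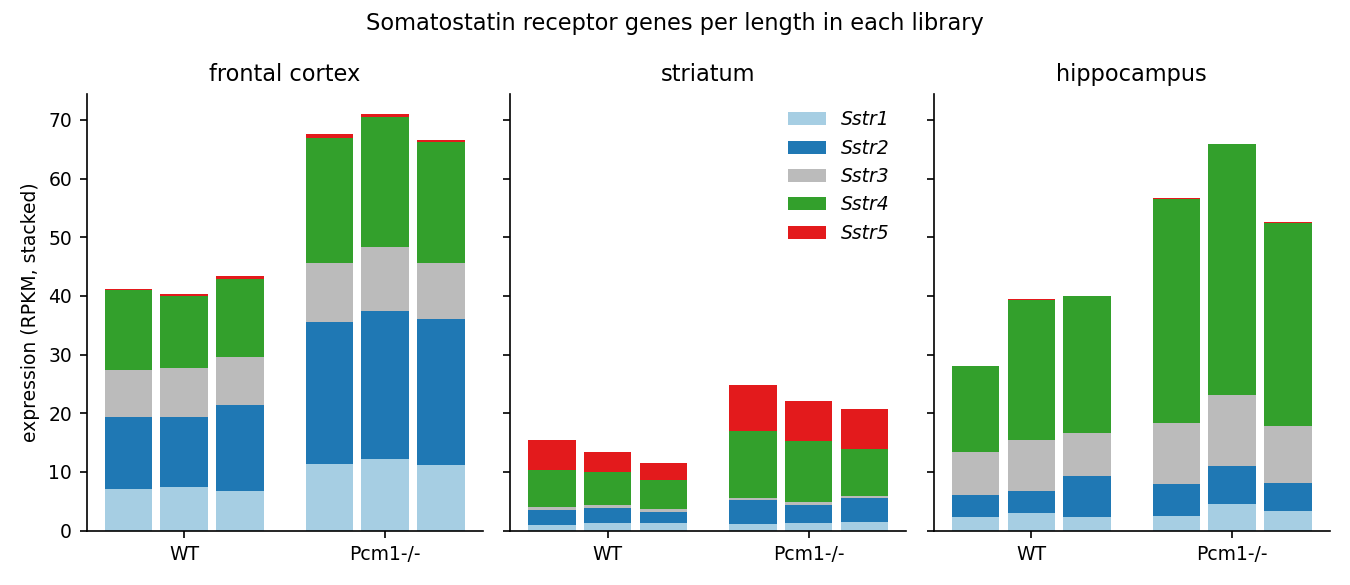
Expression of the 5 somatostatin receptor genes in RPKM, stacked, with 1 bar per library, by region and genotype. Mutant bars reach 66.6 to 71.0 RPKM in frontal cortex, 20.8 to 24.9 in striatum and 52.5 to 66.0 in hippocampus, each above the WT bars of its region, and Sstr5 is a thin slice outside striatum (at most 1.15% of a bar).

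Genes around the peptides and receptors were taken from 16 lists, which hold 130 tested genes outside the family. The edgeR test over all genes called 7 of these higher and 1 lower in mutant frontal cortex, against 1.74% of all genes. There 24 and 21 had an unadjusted p under 0.05 (15.3% of all genes had) and DESeq2 called 14 and 5 (5.14% of all genes with an adjusted p). None was called in striatum, where edgeR called 0.0285% of all genes. At an unadjusted p under 0.05 there were 18 higher and 25 lower, and by DESeq2 13 and 4, against 13.5% and 3.84% of all genes. None was called in hippocampus either, where edgeR called 0.0171% of all genes. Unadjusted there were 14 and 11, and by DESeq2 5 and 2, against 9.89% and 1.77%.

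Of the other receptors listed, Sstr3, found on neuronal cilia, differed by 0.31 in frontal cortex, -0.19 in striatum and 0.44 in hippocampus (adjusted p = 0.0612, 0.693 and 0.391, edgeR; 0.0144 in frontal cortex and 0.0305 in hippocampus by DESeq2).

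Of the 11 genes for peptide processing, storage and breakdown, Scg2, a granin of dense-core vesicles, rose in mutant frontal cortex from 181 to 279 CPM (log2 fold change 0.62, SE 0.0942, adjusted p = 0.0195, edgeR). In striatum its difference was 0.49 (adjusted p = 0.169, edgeR; 0.00257 by DESeq2). The convertase gene Pcsk2 had the smallest p of this list in hippocampus (log2 fold change 0.22, adjusted p = 0.456, edgeR). The list's median log2 fold change was 0.10 in frontal cortex, 0.05 in striatum and 0.05 in hippocampus.

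Of the 23 genes for receptor signalling, Kcnj3, a subunit of the potassium channel that these receptors open, rose in frontal cortex (log2 fold change 0.38, SE 0.0613, adjusted p = 0.0240, edgeR). The channel subunit Kcnj6 had the smallest p in hippocampus (0.43, adjusted p = 0.391, edgeR; 0.0106 by DESeq2), and the adenylyl cyclase Adcy6 in striatum (-0.37, adjusted p = 0.188, edgeR). In sign, 13 of the 23 were higher in mutant frontal cortex, 7 in striatum and 15 in hippocampus, with median log2 fold changes of 0.01, -0.07 and 0.03.

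Among 16 other genes of Sst interneurons, edgeR called 1 in frontal cortex (1.74% of all genes). DESeq2 called 2 higher and 1 lower there (5.14% of all genes with an adjusted p). Crhbp, a binding protein of corticotropin-releasing hormone, rose in frontal cortex from 15.95 to 24.3 CPM (log2 fold change 0.60, SE 0.0888, adjusted p = 0.0188, edgeR). It also had the smallest p of the list in hippocampus (0.85, SE 0.154, adjusted p = 0.391, edgeR; 0.000386 by DESeq2). In striatum that was Pdyn, the dynorphin precursor (0.58, adjusted p = 0.177, edgeR; 0.00332 by DESeq2). The striatal cells that hold Pdyn were not identified, so its value is not one of Sst interneurons alone. In sign, 9 of the 16 were higher in mutant frontal cortex, 8 in striatum and 10 in hippocampus. The median log2 fold changes were 0.07, -0.00074 and 0.09.

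Of 10 general GABA neuron genes, none passed in frontal cortex by edgeR or DESeq2. At an unadjusted p under 0.05 there was 1 (15.3% of all genes), Slc32a1 (log2 fold change 0.20, adjusted p = 0.311, edgeR). In sign, 6 of the 10 were higher there, 6 in striatum and 8 in hippocampus, with median log2 fold changes of 0.01, 0.01 and 0.19. Their sum in frontal cortex was 1130 to 1326 CPM in WT and 1248 to 1327 CPM in mutants. In hippocampus it was 861 to 1101 and 949 to 1028 CPM, which also overlapped. The striatal sums, 2076 to 2202 CPM in WT and 2261 to 2338 CPM in mutants, did not overlap. In striatum Slc32a1, the vesicular GABA transporter, had a log2 fold change of 0.36 (adjusted p = 0.128, edgeR; 0.000588 by DESeq2), and in hippocampus Dlx2, a GABA neuron transcription factor, 0.53 (adjusted p = 0.405, edgeR). Of the 8 Pvalb interneuron genes, all were higher in sign in mutant frontal cortex and 2 in striatum and hippocampus each. They summed to 726 to 858 CPM in WT and 931 to 973 CPM in mutant frontal cortex, and overlapped in the other regions. Kcnc1, a fast potassium channel, rose in frontal cortex (0.33, SE 0.0659, adjusted p = 0.0482, edgeR). The smallest p in striatum was that of Tac1 (0.41, adjusted p = 0.220, edgeR, and 0.0313 by DESeq2), whose striatal cells were likewise not identified. In hippocampus it was that of Ank1 (-0.49, adjusted p = 0.391, edgeR, and 0.0171 by DESeq2).

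No gene of the 11 of Vip and Cck interneurons or of the 5 of Lamp5 interneurons passed by edgeR in frontal cortex. At an unadjusted p under 0.05 there were 5 and 1, and DESeq2 called 1 each (15.3% and 5.14% of all genes). The Vip and Cck genes summed there to 843 to 918 CPM in WT and 956 to 1010 CPM in mutants. The Lamp5 genes summed to 270 to 339 and 338 to 366 CPM. In sign, 5 of the 11 and all 5 were higher there, with median log2 fold changes of -0.08 and 0.13, while 5 and 3 were higher in striatum and 7 and 4 in hippocampus. Cnr1, the cannabinoid receptor of Cck cells, came nearest (log2 fold change 0.43, adjusted p = 0.0667, edgeR; 0.00143 by DESeq2), followed in the other list by Sv2c (0.46, adjusted p = 0.0805, edgeR; 0.0107 by DESeq2). Calb2 had the smallest p of the first list in striatum (-1.09, adjusted p = 0.140, edgeR, and 0.00234 by DESeq2) and Cnr1 in hippocampus (0.59, adjusted p = 0.434, edgeR). In hippocampus 1 gene was higher and 3 were lower at an unadjusted p under 0.05 (9.89% of all genes). Lamp5 in striatum and Ndnf in hippocampus were those of the second (0.32 and 0.29, adjusted p = 0.178 and 0.537, edgeR; 0.0232 by DESeq2 for Lamp5).

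Genes of projection neurons were also among those called in frontal cortex. The glutamate transporter Slc17a7 rose (log2 fold change 0.26, SE 0.0490, adjusted p = 0.0396, edgeR) and the kinase Camk2a fell (-0.32, SE 0.0631, adjusted p = 0.0475, edgeR). From the striatal list, Penk, the enkephalin precursor, rose from 49.2 to 95.6 CPM (0.95, SE 0.108, adjusted p = 0.00816, edgeR) and Drd1 from 11.6 to 18.6 CPM (0.68, SE 0.0985, adjusted p = 0.0177, edgeR). The nearest hippocampal list genes were Prox1 in frontal cortex (-0.31, adjusted p = 0.0766, edgeR) and Wfs1 in striatum and hippocampus (0.52 and 0.36, adjusted p = 0.185 and 0.433, edgeR; 0.00611 by DESeq2 in striatum). Of the 7 genes of that list, 2 were higher in sign in frontal cortex, 4 in striatum and 4 in hippocampus, and in striatum DESeq2 called Prox1 lower (-0.60, adjusted p = 0.00900). Of the 8 genes of the striatal list, 6 were higher in frontal cortex and 4 in hippocampus (median 0.03). Of the 7 cortical excitatory genes, 4 were higher in frontal cortex, 0 in striatum and 7 in hippocampus. In hippocampus Slc17a7 differed by 0.45 (adjusted p = 0.414, edgeR; 0.0387 by DESeq2) and Drd1 by 0.66 (adjusted p = 0.391, edgeR; 0.0281 by DESeq2), and in striatum Slc17a7 by -1.37 (adjusted p = 0.341, edgeR).

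All 4 oligodendrocyte genes and all 4 microglia genes had a negative log2 fold change in each region, and none passed by edgeR. In frontal cortex, 3 and 4 of them had an unadjusted p under 0.05 and DESeq2 called 1 of each list (15.3% and 5.14% of all genes), with Mag and P2ry12 nearest by edgeR (-0.24 and -0.32, adjusted p = 0.116 and 0.119). Oligodendrocyte sums there were 1505 to 2026 CPM in WT and 1363 to 1440.5 CPM in mutants, and microglia sums 276 to 365 and 237 to 268 CPM. The part of this difference in the values of the 6 genes was not tested. In striatum the nearest were Mag and P2ry12 again (-0.41 and -0.30, adjusted p = 0.268 and 0.128, edgeR, and 0.00900 by DESeq2 for P2ry12). Of each list 3 had an unadjusted p under 0.05, and DESeq2 called 2 microglia genes (13.5% and 3.84% of all genes). In hippocampus the nearest were Mbp and C1qa (-0.74 and -0.54, adjusted p = 0.455 and 0.536, edgeR). There 1 and 0 had an unadjusted p under 0.05 and DESeq2 called none (9.89% and 1.77% of all genes).

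No astrocyte, choroid plexus or hypothalamus gene passed by edgeR in any region. By DESeq2 1 did, Aqp4 in hippocampus (1.77% of all genes with an adjusted p did). The lists held 4, 6 and 4 tested genes in that order. At an unadjusted p under 0.05 there were 3 in frontal cortex, 7 in striatum and 1 in hippocampus, against 15.3%, 13.5% and 9.89% of all genes. Of the 4 astrocyte genes, 2 were lower in sign in frontal cortex, 4 in striatum and 3 in hippocampus. The nearest were Slc1a3 in frontal cortex, Gfap in striatum and Aqp4 in hippocampus (-0.28, -1.11 and -0.47, adjusted p = 0.179, 0.218 and 0.396, edgeR). Choroid plexus genes were led by Ttr, Aqp1 and Kl in that order of regions (-1.82, -4.83 and -0.53, adjusted p = 0.208, 0.290 and 0.737, edgeR). Of the 8 hypothalamic genes, 4 were tested, their sum was at most 14.2 CPM in any library, and Pomc, Avp and Avp had the smallest p (-2.32, -1.85 and -1.30, adjusted p = 0.325, 0.365 and 0.521, edgeR).

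Genes with the most similar pattern were sought by Pearson correlation of log2 CPM over the 18 libraries among 12870 genes of at least 1 log2 CPM on average. The libraries share regions and animals, so the values are a description. Sst was most like Zdhhc16 (r = 0.92), Npy (0.89) and Abhd12 (0.87), Npy being the neuropeptide that many Sst cells also make. After subtraction of the 6 group means, Sst varied most like Stau2 (0.95), Nckipsd (0.94) and Rab3a (0.94). Cort was most like Ntng2 (0.99), Mfsd4a (0.98) and Opcml (0.98), and after subtraction like Arhgef3 (0.90), Adam23 (0.89) and Setmar (0.83).

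For Sstr1 near genes were Cd34 (0.98) and Spock1 (0.98), and for Sstr2 they were Tmem56 (0.98), Slc27a4 (0.97) and Adprh (0.97). Sstr4 followed Tspan13 (0.97), Pcdh1 (0.96) and Arl5b (0.96), and Sstr5 followed Cntnap3 (0.99), Ppp1r9a (0.99) and 5330417C22Rik (0.98). Within the family, Sstr1 and Sstr2 were closest (r = 0.94), while Cort and Sstr5 ran opposite to each other over the regions (-0.85). After subtraction of the group means, Sst correlated with Sstr1 at 0.79 and with Cort at 0.21. Mutant hippocampus replicate 2, low in choroid plexus genes, was the highest of its group in Sst, Sstr1 and Cort, and its part was not tested.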

How the data were processed

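Polyadenylated RNA of 18 mouse brain samples was sequenced with a stranded kit. The authors trimmed reads with Trim Galore and cutadapt, mapped the remainder with STAR (GRCm38), retained uniquely mapped reads and deposited raw counts per Ensembl gene from HTSeq, without normalization. Tool versions and the strand setting are not given in the sources used here. Reads on no gene were 8.98 to 11.6% of each library and were left out. Genes were named, and lengths taken, from a GENCODE annotation of the same build, so RPKM uses merged exons.

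Counts were tested with edgeR 4.0.16 in R 4.3.3 (TMM factors, quasi-likelihood test, Benjamini-Hochberg adjustment, called under 0.05). The 17545 genes tested reached 10 counts in some library. The genotypes were compared within each region and the regions within each genotype, the latter in 1 fit of 9 libraries. CPM used TMM factors, and log2 CPM a prior count of 2. As SE, the ratio of the log2 fold change to the root of its F statistic is given. DESeq2 1.42.0 was the other tool, and figures were made with matplotlib 3.10.9 in Python 3.11.15. The edgeR and DESeq2 tests of the comparisons of genotypes and of regions were also run on simulated counts. The members, lists and tests were chosen with earlier results of these data known. Named were all 6 genes, from each list the called genes or else the gene with the smallest p, and the 3 genes most alike by r, of which 1 is not reported here.

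Groups came from the sample titles. No label says that samples of a group were prepared independently beyond the animal, and p-values measure the spread between these 3 animals. Libraries of the same animal, by the animal numbers the files carry, correlated between regions at a mean of 0.198 in mutants and, in WT mice, of 0.338 where replicate numbers match and 0.231 where they do not (deviations from group means). The animal as a block was an alternative. Other alternatives were DESeq2, DESeq2 size factors, filters, the replicate number, sex or lane as terms, fits of all 18 libraries, and each library left out. Total counts of 24950537 to 33405081 leave single genes limited mainly by the spread between animals, and rare ones such as striatal Cort by counting error.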

Additional observations from a re-analysis of the deposited data

How the results depend on the processing

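In frontal cortex, 690 genes were called by DESeq2, 505 without the filter, 29 with lane within the region, 176 in 1 fit of all 18 libraries and 95 with lane added to that fit. In striatum these were 488, 61, 54 and 8 (lane within the region could not be fitted), and 505 with sex as a covariate. In hippocampus they were 220 by DESeq2, 6 with sex, 205 in the fit of all 18 libraries and 160 with lane added. DESeq2 called 53 genes in the interaction. Of the 6 genes, DESeq2 and the sex covariate called 3 in striatum and the fit of all 18 libraries 1. In hippocampus DESeq2 and the fit of all 18 libraries called 1, and that fit with lane called 2, Sst and Sstr4 (adjusted p = 0.0468 and 0.0336, edgeR).

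The replicate number as a block gave 665, 3 and 9 called genes in frontal cortex, striatum and hippocampus. Same-numbered libraries of both genotypes correlated at a mean of 0.167, -0.0823 and 0.265 (lowest 0.0428, -0.269 and 0.0955), so the numbers were not taken to pair the samples. The animal as a block changed no call between regions other than that of Sst between WT hippocampus and striatum.

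Leaving out single libraries gave 11 to 825 called genes in frontal cortex, 2 to 5 in striatum, 1 to 11 in hippocampus and 0 to 8 in the interaction. The lowest frontal cortex count came without mutant replicate 1 and the highest without WT replicate 3. Of the 6 genes, 2 to 4 stayed called in WT hippocampus against frontal cortex. In mutants, Sst and Cort passed there without hippocampus replicate 2 (adjusted p = 0.000676 and 0.0426, edgeR), and Sst against striatum without hippocampus replicate 3 (adjusted p = 0.0402, edgeR). Some signs turned. The striatal genotype difference ran from -0.35 to 0.86 for Cort and from -0.082 to 0.057 for Sst, and the interaction from -0.21 to 0.99 for Cort, -0.11 to 0.20 for Sstr4 and -0.54 to 0.33 for Sstr5. Log2 Cort minus log2 Sst differed between genotypes by -0.19 to 0.66 in striatum and -0.027 to 0.080 in hippocampus. With lane in the fit of all 18 libraries, the striatal difference of Cort was -0.31 and that of Sst between WT striatum and frontal cortex 0.012. In that fit the striatal genotype difference of Sst, -0.01 in the region alone, was -0.27. Between mutant hippocampus and striatum, Sstr2 was then no longer called and Sst was (adjusted p = 0.144 and 0.0223, edgeR). By Spearman's rho, 0 of the 3 genes most like Cort, Sstr1, Sstr4 and Sstr5 remained among the first 3, and 1 of those like Cort after subtraction of group means. The causes were not tested.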
